A study of Homo sapiens with 8 samples.

Results

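The regions described here are the called γH2AX regions of chromosome 5 whose midpoint lies between 1 and 52 Mb (human build hg19), which takes in nearly all of the short arm, the centromere and the first part of the long arm. They number 283 of 17789 regions in the Pt-ttpy list, 335 of 25671 in the cisplatin list and 170 of 9709 in the untreated list, together 788 of 53169 on chromosomes 1 to 22 and X. The span was chosen because the same lists place dense groups of regions in it, so its counts and densities are a description and carry no test.

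The study used A2780, a human ovarian carcinoma cell line. Cells were given Pt-ttpy or cisplatin, each for 96 hours at its own IC80, the concentration with 80% inhibition, or were left untreated. Chromatin was precipitated with an antibody against γH2AX and sequenced, and input chromatin of untreated cells was sequenced without precipitation. Each group has 2 samples. The labels tie both samples of a group to 1 peak list, so there are 3 lists without replicates, no value between conditions has a replicate check, and no p-value was computed. Input has no list and was not analysed here.

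γH2AX is histone H2AX phosphorylated on its tail, a mark that spreads over chromatin around DNA double-strand breaks. Cisplatin crosslinks neighbouring guanines in DNA. Pt-ttpy is a platinum complex that binds G-quadruplexes, which form in guanine-rich sequence such as telomeres. Human centromeres are built of alpha satellite, a short sequence repeated in tandem and grouped into longer repeated units, and the flanks of centromeres are rich in satellites and duplicated blocks. Reads from such sequence can be hard to place, and an assembly can hold fewer copies than a cell does. The short arm of chromosome 5 also carries TERT, the gene of the catalytic subunit of telomerase. Regions were not assigned to genes, because no annotation of hg19 was used here, and for the same reason no sequence is given.

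The regions were packed into a few dense places, and each of those places held regions in all 3 conditions. Of the 510 windows of 100 kb in the span, 61 held any region. A window was called dense where at least 1 list had 10 or more regions, and 7 windows were dense. They held 251 of the 283 Pt-ttpy regions (88.7%), 271 of the 335 cisplatin regions (80.9%) and 157 of the 170 untreated regions (92.4%). By the same limit, 632 windows of chromosomes 1 to 22 and X held 82.8% of the whole Pt-ttpy, 72.5% of the cisplatin and 91.8% of the untreated list, so packing is a feature of the lists as a whole and the untreated share in the span is close to that background. The 7 windows form 5 blocks. On the short arm these lie at 17.5 to 17.6 Mb, at 21.4 to 21.6 Mb and at 34.1 to 34.2 Mb. The other 2 flank the centromere gap, at 46.3 to 46.4 Mb on the short-arm side and at 49.4 to 49.6 Mb on the long-arm side. The window nearest above the limit of 10, at 34.1 Mb, held 15 Pt-ttpy, 14 cisplatin and 9 untreated regions. The nearest below it, at 29.4 Mb, held 7 Pt-ttpy, 9 cisplatin and 1 untreated region. At the edges of the span, the first regions inside had pileups of 23 reads for Pt-ttpy, 22 for cisplatin and 18 for untreated, and the last regions before 1 Mb had 26, 17 and 20. The last regions inside had 32, 18 and 30 reads, and the first beyond 52 Mb had 25, 16 and 23.

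**Figure D1:**
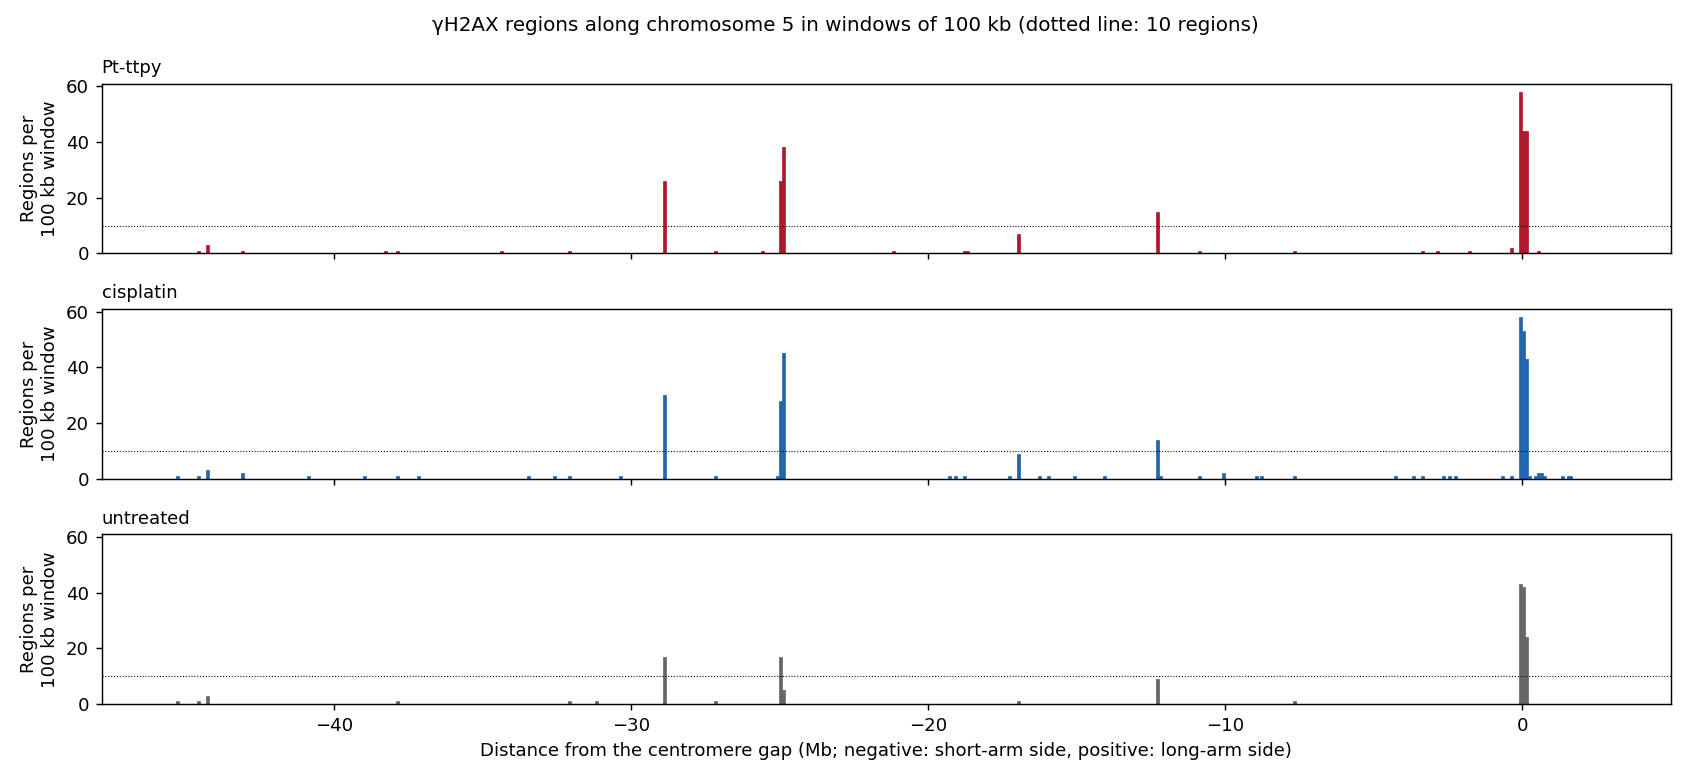
Number of γH2AX regions in each 100 kb window (vertical axis) against the distance of the window from the centromere gap in Mb (horizontal axis), with the Pt-ttpy list on top, cisplatin in the middle and untreated below; the dotted line marks 10 regions. The tall bars stand at the same distances in the 3 lists, apart from the window at 21.5 Mb, which reaches 38 for Pt-ttpy and 45 for cisplatin but 5 for untreated, and the low bars between them are most numerous in the cisplatin list; the window at 46.4 Mb, with 3 Pt-ttpy, 5 cisplatin and 2 untreated regions, stands at 0 behind the bars beside it.

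The treated lists held more regions in the span than the untreated list, with 1.66 Pt-ttpy and 1.97 cisplatin regions for each untreated one. Over the rest of chromosomes 1 to 22 and X the same ratios were 1.84 and 2.66. The number of Pt-ttpy regions was 0.845 times that of cisplatin regions in the span and 0.691 times in the rest of the lists. Inside the dense windows the ratios to untreated were 1.60 for Pt-ttpy and 1.73 for cisplatin. Outside them they were 2.46 for Pt-ttpy and 4.92 for cisplatin, on 32 Pt-ttpy, 64 cisplatin and 13 untreated regions. Peak numbers in the names of the untreated list have breaks: 161 numbers are present in the span and a further 109 are missing between them. With these counted, the untreated list reaches 270 and the ratios are 1.05 for Pt-ttpy and 1.24 for cisplatin. Among the untreated regions of chromosomes 1 to 22 and X, 8778 of the peak numbers up to 17622 are absent. That count takes in any numbers on other chromosomes or sequences, which were left out here. The ratios for the rest of the lists were not adjusted for missing numbers, so the adjusted ratios cannot be set against them. With the same number of top regions taken from every list, the ratios to untreated were 1.14 for Pt-ttpy and 1.12 for cisplatin, and the Pt-ttpy to cisplatin ratio was 1.02.

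The lists were not called on equal terms. The deposited fold enrichments take evenly spaced values, which gives the number of reads stacked at the peak (the pileup) and one background value per list, used at every position. The background, in unscaled reads, was 6.49 for Pt-ttpy, 4.78 for cisplatin and 2.33 for untreated. The lowest pileup called anywhere was 19 in the Pt-ttpy, 14 in the cisplatin and 9 in the untreated list. All deposited folds and p-values could be rebuilt from 1 constant background per list and, for Pt-ttpy, a pileup scale of 0.798, with no term that varies with position. The names of both treated lists also carry an abbreviation that may stand for untreated, and whether untreated cells served as a control in the calling is not given in the labels. Whether a list is longer through the drug or through its depth cannot be told apart here.

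The 2 flanks of the centromere gap held the largest part of the span's regions. Within 5 Mb of the gap lay 155 of the 283 Pt-ttpy regions (54.8%, exact binomial 95% interval 48.8 to 60.7%), 177 of the 335 cisplatin regions (52.8%, 47.3 to 58.3%) and 111 of the 170 untreated regions (65.3%, 57.6 to 72.4%). These intervals cover counting error only and treat regions as independent, which neighbouring regions are not. The span ends at 52 Mb, so less than 5 Mb of the long-arm side lies in it. The gap itself held 0 regions. The last called base before it is at 46405582 and the first called base after it at 49405649, so regions were called up to the assembled edge on either side.

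The strongest and widest regions of the span lay at the very start of the long arm. The widest ran from 49432423 to 49441591 in the Pt-ttpy list, a width of 9169 bp. It ran from 49432423 to 49441345 in the cisplatin list (8923 bp) and from 49432437 to 49441357 in the untreated list (8921 bp). Its pileup was 199 reads after Pt-ttpy, 194 after cisplatin and 167 in untreated cells, where the highest pileup anywhere in a list is 202, 202 and 200. The values here are thus close to the highest of each list. Those highest pileups are nearly level although the backgrounds differ, and whether pileups had an upper limit was not tested. The folds of this region were 25.9 for Pt-ttpy, 33.8 for cisplatin and 50.5 for untreated, an order opposite to that of the pileups, because each fold is divided by its own list's background.

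The region at the edge of the gap began at 49405651 in the Pt-ttpy and at 49405649 in the cisplatin list, and ran to 49408092 and 49408088. Its pileup was 198 reads after Pt-ttpy and 184 after cisplatin. In the untreated list the start of this stretch was in pieces, the first from 49405649 to 49405988 and the second from 49406116 to 49406589, both carrying 1 peak number and a pileup of 154 reads. The region next to the widest one ran from 49428221 to 49432310 with a pileup of 185 reads after Pt-ttpy and from 49428012 to 49432301 with 177 reads after cisplatin. Its untreated counterpart was again in pieces, from 49428338 to 49431139 and from 49431253 to 49432282, with 144 reads. The breaks within these regions were present in the untreated list and not in the other 2. In the whole span 9 untreated numbers were on more than 1 piece. A pileup printed for an untreated piece is that of its peak number, and 21 untreated regions have their listed summit outside the region itself.

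**Figure D2:**
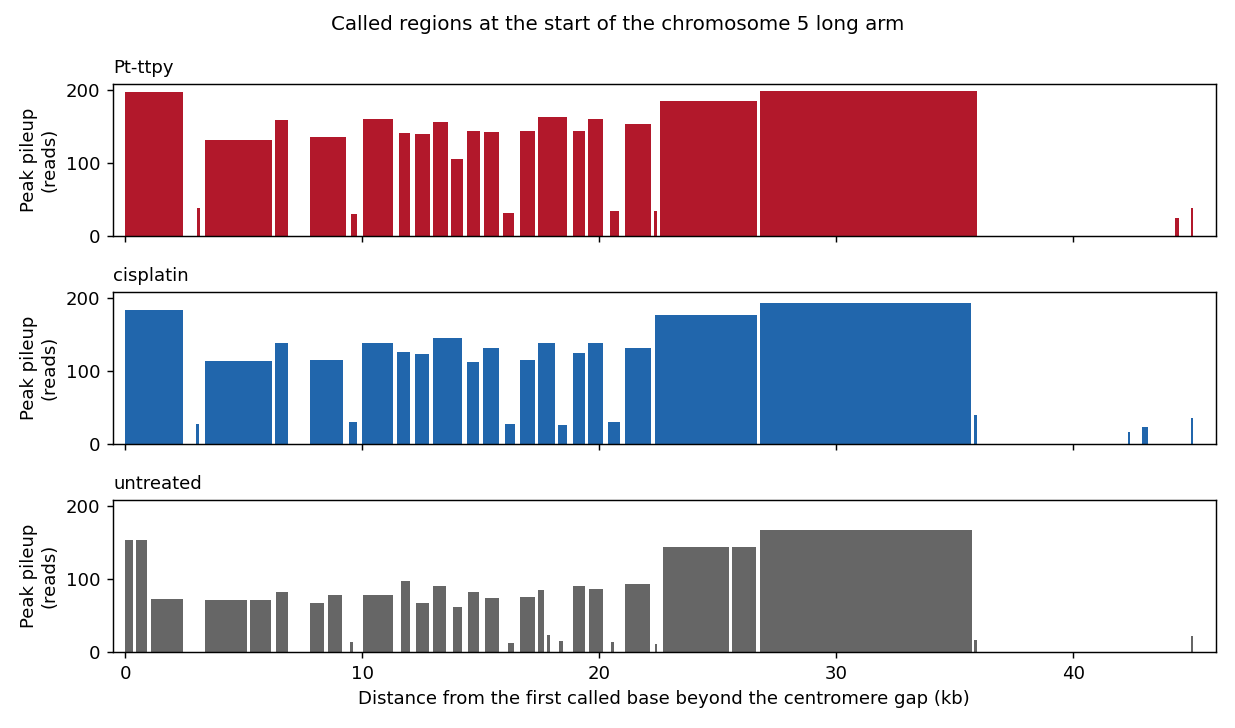
Called regions over the first 46 kb of the long arm, drawn to scale as bars whose width is the region and whose height is the peak pileup in reads; the horizontal axis is the distance in kb from the first called base beyond the gap, with Pt-ttpy on top, cisplatin in the middle and untreated below. The outlines match in the 3 lists: a region at the edge, a row of narrower ones, and the widest region, with 199, 194 and 167 reads, after which the pileups drop; pieces of 1 untreated number share the height of that number.

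Between these wide regions the peaks came at a repeated distance. From the edge of the gap to 49427835, 20 Pt-ttpy, 20 cisplatin and 24 untreated summits were called (untreated summits outside their own piece were left out). The distance between 2 summits found most often, with a tolerance of 30 bp, was 2216 to 2218 bp in the Pt-ttpy list, with 11 of the 190 pairs, and 2218 bp in the cisplatin list, with 13 of 190. Among untreated summits no single distance led: 9 of 276 pairs were reached at several distances between 2208 and 4447 bp. At 2217 bp there were 11 pairs of Pt-ttpy, 12 of cisplatin and 8 of untreated summits, and at 4434 bp, double that distance, 9, 10 and 9. Over all distances from 300 to 6000 bp the median number of pairs was 1 for Pt-ttpy, 0 for cisplatin and 1 for untreated summits, and 95% of distances had at most 4 in each list. The rest of the long-arm flank held 0 Pt-ttpy, 4 cisplatin and 1 untreated pair at 2217 bp, and the short-arm flank 2, 4 and 1, although both hold more summits. These stretches had other commonest distances of their own. They reached 7 of 2080 Pt-ttpy, 9 of 2628 cisplatin and 4 of 630 untreated pairs in the rest of the long-arm flank, and 9 of 1653, 8 of 1653 and 5 of 741 in the short-arm flank. In the block at 21.4 to 21.6 Mb, the commonest distances reached 10 of 2016 Pt-ttpy, 12 of 2628 cisplatin and 3 of 153 untreated pairs, and 1, 5 and 1 pairs lay at 2217 bp. The distance was picked from these summits and is given without a test.

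The long-arm block at 49.4 to 49.6 Mb as a whole held 88 Pt-ttpy, 96 cisplatin and 66 untreated regions. They covered 41.4 kb in the Pt-ttpy, 43.0 kb in the cisplatin and 33.1 kb in the untreated list, or 43.6%, 40.2% and 60.8% of all bases covered in the span. The second of its windows, at 49.5 to 49.6 Mb, was made of narrow regions with medians of 142.5 bp for Pt-ttpy, 144 bp for cisplatin and 120.5 bp for untreated. The strongest region there was at 49517586 to 49517736 with 86 reads for Pt-ttpy, at 49515016 to 49515319 with 71 reads for cisplatin, level with a second one at 49535213 to 49535480, and at 49537053 to 49537180 with 50 reads for untreated. The first of these named for each list overlapped a region of both other lists. The span ended sparsely: from 50 to 52 Mb there were 0 Pt-ttpy, 6 cisplatin and 0 untreated regions.

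The short-arm flank differed in make-up, with many regions of middling height and no wide one. The window at 46.3 to 46.4 Mb held 58 Pt-ttpy, 58 cisplatin and 43 untreated regions, and the widest of them was 623 bp, 716 bp and 619 bp. Their median pileup was 43.5 reads for Pt-ttpy, 36 for cisplatin and 25 for untreated. All 3 lists had their strongest region of this window at the same site. It ran from 46351671 to 46351877 with 102 reads in the Pt-ttpy list, from 46351671 to 46351882 with 86 reads in the cisplatin list and from 46351673 to 46351813 with 63 reads in the untreated list. A stretch of 7.66 kb from 46384457 to 46392112 held no region of any list. Closer to the gap, regions at 46401889 to 46402152 (Pt-ttpy, 48 reads), 46401874 to 46402046 (cisplatin, 42 reads) and 46401895 to 46402021 (untreated, 23 reads) were shared. The last ones, at 46405281 to 46405575 with 40 reads for Pt-ttpy and 46405435 to 46405582 with 38 reads for cisplatin, overlapped no untreated region.

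On the short arm away from the centromere, the block at 17.5 to 17.6 Mb consisted of 2 clusters with an empty stretch between them. It held 26 Pt-ttpy, 30 cisplatin and 17 untreated regions. The first cluster began at 17517733, 17517717 and 17517753 in the Pt-ttpy, cisplatin and untreated lists, and the second ended at 17597784, 17597805 and 17596828. Between 17530481 and 17581854, a length of 51.4 kb, no list had a region. The clusters held 10 and 16 Pt-ttpy, 15 and 15 cisplatin, and 7 and 10 untreated regions. The strongest regions were at 17517733 to 17517931 with 50 reads for Pt-ttpy, at 17522808 to 17524026 with 42 reads for cisplatin and at 17522643 to 17523983 with 27 reads for untreated, so the Pt-ttpy one was at another site than the other 2.

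The block at 21.4 to 21.6 Mb was, of the 5 blocks, the one whose treated regions lay least often on untreated ones, with 18 of 64 Pt-ttpy regions (28.1%) and 19 of 73 cisplatin regions (26.0%), where 39.5% and 27.3% of the whole lists do. Its first window, at 21.4 to 21.5 Mb, held 26 Pt-ttpy, 28 cisplatin and 17 untreated regions, all between 21478580 and 21496958. Here the regions were dense, covering 54.7% of their extent in the Pt-ttpy, 63.2% in the cisplatin and 26.6% in the untreated list. The strongest ran from 21479319 to 21480541 with 55 reads for Pt-ttpy, from 21479352 to 21480905 with 58 reads for cisplatin and from 21479332 to 21480152 with 31 reads for untreated. The untreated one shared its peak number with a piece at 21480274 to 21480656. The second window, at 21.5 to 21.6 Mb, held 38 Pt-ttpy and 45 cisplatin regions against 5 untreated ones, 7.6 and 9 times as many. The regions were weak in each list, with a median pileup of 23.5 reads for Pt-ttpy, 19 for cisplatin and 12 for untreated. A -log10 q of at least 5 was reached by 6 of the 38 Pt-ttpy, 15 of the 45 cisplatin and 1 of the 5 untreated regions. The background share over whole lists is 57.6% for Pt-ttpy, 46.9% for cisplatin and 73.9% for untreated.

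Missing untreated peak numbers fell in this same window. Of them, 10 lie between 2 kept numbers of the window and 29 have at least 1 kept neighbour in it. Those past its last kept number may lie further along the arm, up to 29.4 Mb. Thus 15 to 34 untreated numbers may belong to the window in place of 5. An untreated region was overlapped there by 3 of the 38 Pt-ttpy regions and by 4 of the 45 cisplatin regions. The 2 drugs also shared a smaller part of their regions here than in any of the other 6 dense windows, with 21 of 38 Pt-ttpy regions (55.3%) on a cisplatin region and 21 of 45 cisplatin regions (46.7%) on a Pt-ttpy region, where 69.9% and 47.8% of the whole lists are. In the neighbouring window at 21.4 Mb these were 24 of 26 (92.3%) and 26 of 28 (92.9%). After the last region, which ended at 21571462, no list had a region up to 25227203, the longest empty stretch of the span at 3656 kb.

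**Figure D3:**
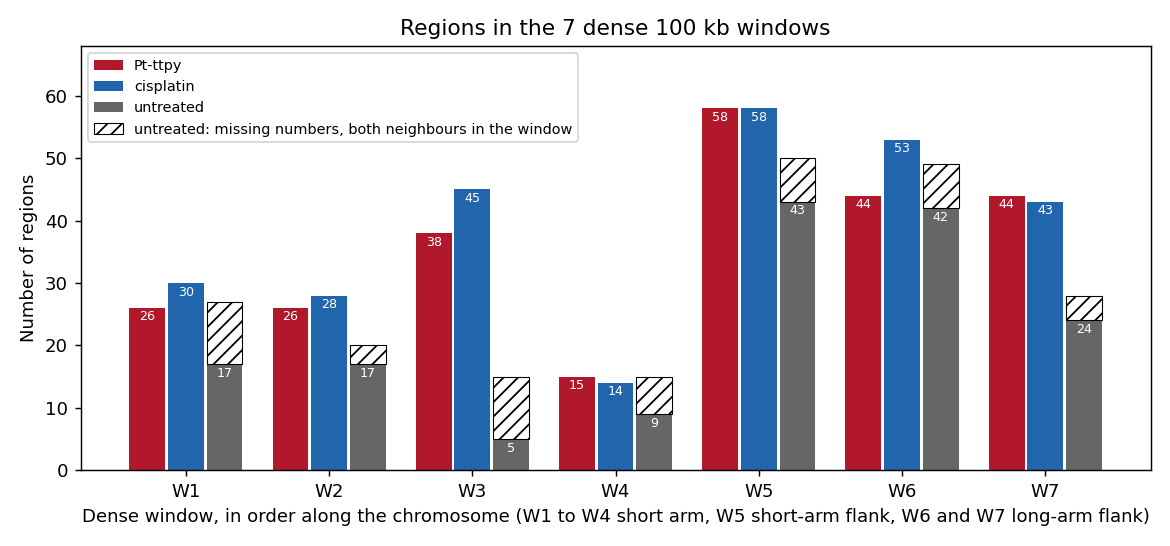
Number of regions in each of the 7 dense windows in order along the chromosome, starting at 17.5 Mb (W1), 21.4 (W2), 21.5 (W3), 34.1 (W4), 46.3 (W5), 49.4 (W6) and 49.5 Mb (W7), with Pt-ttpy left, cisplatin in the middle and untreated right. Hatched boxes add the missing untreated peak numbers whose kept neighbours both lie in the window; W3, with 38 Pt-ttpy and 45 cisplatin against 5 untreated regions, has 10 of them.

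The block at 34.1 to 34.2 Mb was the smallest, with 15 Pt-ttpy, 14 cisplatin and 9 untreated regions over 18.8 kb, 17.7 kb and 17.7 kb. All 9 untreated regions there overlapped both a Pt-ttpy and a cisplatin region, where 95.1% of the whole untreated list overlaps Pt-ttpy and 96.1% cisplatin regions. The strongest lay at 34193460 to 34194396 with 48 reads for Pt-ttpy, at 34197279 to 34197424 with 34 reads for cisplatin and at 34194117 to 34194396 with 22 reads for untreated. The untreated one is 1 piece of a peak number that also has a piece at 34193748 to 34193963, and the listed summit lies in neither. At 29.4 Mb, below the limit for a dense window, 7 Pt-ttpy regions spread over 7.91 kb and 9 cisplatin regions over 7.69 kb, against 1 untreated region of 95 bp. Their pileups were 22 to 27 reads for Pt-ttpy and 19 to 27 for cisplatin, close to the lowest called in each list, and 12 for the untreated region. Missing untreated numbers adjoin that untreated region: 17 have it as a kept neighbour, so that 1 to 18 untreated numbers may belong to the window. The last kept number of the window at 21.5 Mb is 14018, and that of this region is 14033. Missing numbers between them are counted for both windows and may lie anywhere between, so both upper limits cannot hold at once.

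Outside the dense windows lay 32 Pt-ttpy, 64 cisplatin and 13 untreated regions. Of these, 17 Pt-ttpy, 39 cisplatin and 8 untreated regions were the only one of their list in a window, and the others stood in small groups such as those at 2.1 and 29.4 Mb. Their median fold was 3.72 for Pt-ttpy, 3.55 for cisplatin and 7.22 for untreated, and their median width 124 bp, 136 bp and 124 bp. Cisplatin regions occupied 53 of the 510 windows, Pt-ttpy regions 28 and untreated regions 17. Outside the dense windows, a cisplatin region was overlapped by 22 of 32 Pt-ttpy regions (68.8%) and an untreated one by 9 of 32 (28.1%), where the whole-list shares are 69.9% and 39.5%. Of the cisplatin regions there, 21 of 64 (32.8%) overlapped a Pt-ttpy region and 11 of 64 (17.2%) an untreated one, where the whole-list shares are 47.8% and 27.3%.

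A few sites outside the dense windows were called in all 3 lists with little shift in position. One was at 38760534 to 38760649 with 59 reads for Pt-ttpy, at 38760537 to 38760649 with 43 reads for cisplatin and at 38760534 to 38760651 with 43 reads for untreated. Another lay at 19253747 to 19253859 with 50 reads for Pt-ttpy, at 19253744 to 19253865 with 42 reads for cisplatin and at 19253739 to 19253861 with 38 reads for untreated. A further one was at 8519546 to 8519697, 8519540 to 8519680 and 8519560 to 8519683, with 58 Pt-ttpy, 37 cisplatin and 22 untreated reads. At 2.1 to 2.2 Mb a short group began at 2145599 in the Pt-ttpy list (56 reads), at 2145590 in the cisplatin list (53 reads) and at 2145628 in the untreated list (26 reads). From 1 to 2 Mb, the end of the span nearest to the tip of the arm, there were 1 Pt-ttpy, 2 cisplatin and 2 untreated regions.

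Over all regions, the median width was 197 bp for Pt-ttpy (quartiles 127 and 329.5), 177 bp for cisplatin (128.5 and 303.5) and 152 bp for untreated (113.25 and 274.75). In the rest of each list it was 185 bp, 169 bp and 165 bp. At the 110 places with exactly 1 region of each list, the medians were 227 bp for Pt-ttpy, 210.5 bp for cisplatin and 143.5 bp for untreated, and the untreated region was the narrowest at 93 of them. With regions within 1 kb merged, the medians were 399.5 bp for Pt-ttpy, 199 bp for cisplatin and 170.5 bp for untreated. The narrowest untreated region was 2 bp wide. Untreated widths include those of pieces, as 9 untreated peak numbers in the span were on more than 1 piece. In addition, 21 untreated regions have their listed summit outside the region, and 24 were narrower than any treated region of the span. The 110 places include such narrow ones, with untreated widths of 37 bp at 34187434 to 34187956 and 83 bp at 21531350 to 21531710. The count of 93 may thus in part compare shortened untreated regions with whole treated ones, which was not tested. Regions of 1 kb or more numbered 12 in the Pt-ttpy, 15 in the cisplatin and 8 in the untreated list. In all, regions covered 94.9 kb after Pt-ttpy, 107 kb after cisplatin and 54.4 kb in untreated cells. These are widths of called peaks from fragments of 200 to 700 bp and do not measure how far γH2AX spreads.

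Nearly all regions of the span kept in the deposited untreated list were also called after each drug. Of 170 untreated regions, 159 overlapped a Pt-ttpy region by 1 bp or more (93.5%, 95% interval 88.7 to 96.7%), where the share over the whole untreated list is 95.1%. With cisplatin regions 162 overlapped (95.3%, 90.9 to 97.9%), where the whole-list share is 96.1%. Both shares were close to the background. The treated regions lay on untreated ones more often than their whole lists did: 146 of 283 Pt-ttpy regions (51.6%, 45.6 to 57.5%) against 39.5%, and 144 of 335 cisplatin regions (43.0%, 37.6 to 48.5%) against 27.3%. Treated regions of the span were also stronger. A -log10 q of at least 5 was reached by 71.4% of Pt-ttpy and 69.3% of cisplatin regions there. In the rest of the lists it was 57.4% and 46.6%. The overlaps were not compared at matched strength. With equal numbers of top regions per list, the shares on untreated regions in the span were 71.1% for Pt-ttpy and 69.1% for cisplatin. Whole-list shares were not computed with that setting, so these cannot be set against 39.5% and 27.3%. Whether the span differs from the rest of the genome in these overlaps was not tested, since neighbouring regions are not independent. Untreated peak numbers are also missing in unlike shares, 109 of 270 in the span and 8778 of those up to 17622 in the whole list. Both the span and the whole-list shares of treated regions on untreated ones depend on these losses.

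The lists of the 2 drugs also lay on each other. Of the Pt-ttpy regions 232 of 283 (82.0%, 77.0 to 86.3%) overlapped a cisplatin region, against 69.9% over the whole list. Of the cisplatin regions 228 of 335 (68.1%, 62.8 to 73.0%) overlapped a Pt-ttpy region, against 47.8%. Here too the span's stronger regions were not matched in strength to the rest of the lists. Away from the gap by more than 5 Mb the shares in the span were 74.2% and 58.9%. In bases, 80.6% of the sequence covered by Pt-ttpy regions was also covered by cisplatin regions, and 71.5% the other way. The untreated list had 95.4% of its bases under Pt-ttpy and 96.1% under cisplatin regions.

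When overlapping regions of the lists were joined, the span held 380 places. Of these, 135 (35.5%) had regions of all 3 lists and 82 (21.6%) of both drugs but not of the untreated list. The untreated list lacks 109 peak numbers in the span, so such a place may still have been called without a drug. A further 48 places had a Pt-ttpy region alone, 102 a cisplatin region alone and 5 an untreated region alone, while 3 had Pt-ttpy with untreated and 5 cisplatin with untreated. Over chromosomes 1 to 22 and X, 20.9% of 30004 places had all 3 lists and 16.1% both drugs without untreated. As a share of their own list, regions on neither other list were 48 of 283 for Pt-ttpy, 102 of 335 for cisplatin (30.4%) and 5 of 170 for untreated (2.94%), where the whole-list shares are 29.3%, 51.4% and 1.78%. Of the 135 places common to all lists, 127 lay in dense windows. Of the 102 places with cisplatin alone, 40 lay outside them, against 10 of the 48 with Pt-ttpy alone. The block at 21.4 to 21.6 Mb held 22 of the 82 places of both drugs, 18 of the 48 with Pt-ttpy alone and 26 of the 102 with cisplatin alone.

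**Figure D4:**
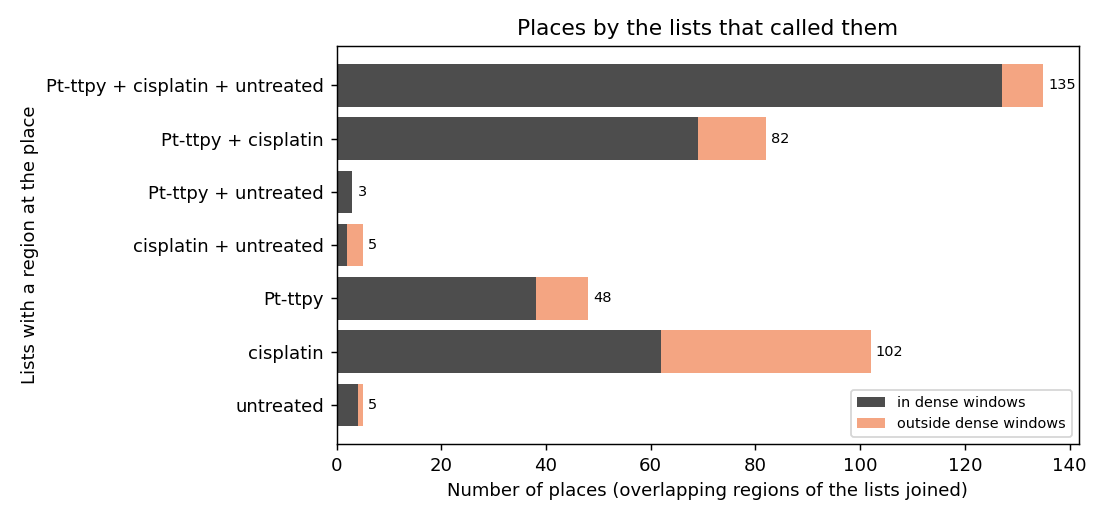
Number of places in the span (horizontal axis) by the lists that have a region there (vertical axis), split into places inside dense windows (dark) and outside them (light). Places of all 3 lists (135) are the most numerous, followed by those with cisplatin alone (102) and those of both drugs (82).

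Treated regions off the deposited untreated list were weaker than those on it. That list lacks 109 peak numbers in the span, so a region off it may still have been called without a drug. The median pileup was 27 reads for the 137 Pt-ttpy regions off the untreated list and 48 for the 146 on it. Over the whole Pt-ttpy list 60.5% of regions are off the untreated list. For cisplatin it was 20 reads for the 191 regions off the untreated list and 37 for the 144 on it, and 72.7% of the whole list is off it. The strongest Pt-ttpy regions off the untreated list were at 46370769 to 46371138 with 51 reads, at 49546802 to 49546921 with 50, at 49534663 to 49534785 with 47 and at 49533612 to 49533727 with 44. All 4 lie in the flanks of the gap and overlapped a cisplatin region. The next, with 42 reads each, were at 25227204 to 25227331 on the short arm and at 49461434 to 49461551 in the long-arm flank, and neither had a cisplatin region on it.

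The strongest cisplatin regions off the untreated list were likewise in the flanks. They were at 49546698 to 49546933 with 45 reads, at 46370905 to 46371157 with 42, at 46343607 to 46343728 with 39, and, with 38 each, at 46405435 to 46405582, at 49552490 to 49552623 and at 49534650 to 49534774. Each of the 6 overlapped a Pt-ttpy region, and the first pair are the sites of the first pair named for Pt-ttpy. Of the 5 untreated regions that overlapped neither treated list, the strongest was at 15277365 to 15277462 with 19 reads. The others were at 46378266 to 46378370 with 16, at 21535614 to 21535760 with 15 (its listed summit lies outside this piece), at 46367486 to 46367589 with 14 and at 21564027 to 21564121 with 12. Over the whole untreated list 1.78% of regions overlap neither treated list.

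Where the drugs shared a region, the peak was usually at the same spot. For 195 pairs of 1 Pt-ttpy and 1 cisplatin region that overlapped each other and no further region, the summits lay a median of 20 bp apart, and 144 pairs (73.8%) were within 50 bp. In the short-arm flank the median was 9 bp over 51 pairs and in the long-arm flank 17.5 bp over 70. In the block at 21.4 to 21.6 Mb it was 77 bp over 28 pairs, and 9 of them (32.1%) were within 50 bp. The Pt-ttpy pileup was the higher one in 178 of the 195 pairs and the cisplatin pileup in 9. The median ratio of Pt-ttpy to cisplatin pileup was 1.21, below the ratio of the list backgrounds, 1.36.

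At 110 places with exactly 1 region of each list, the median pileup was 50 reads for Pt-ttpy, 38.5 for cisplatin and 24 for untreated. The untreated pileup was the lowest at 107 of these places. It is that of the peak number, and the summit can lie outside the piece at the place. One such piece, with 23 reads, is at 1845704 to 1845937. The median ratio to the untreated pileup was 2.06 for Pt-ttpy and 1.64 for cisplatin, where the backgrounds stand at 2.79 and 2.05. As a fold over its own background the untreated value was the highest at 55 of the 110 places. The order of the lists at these places thus depends on whether reads or folds are compared. The places were chosen for being called in every list, and a weak place can be called in 1 list and missed in another.

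**Figure D5:**
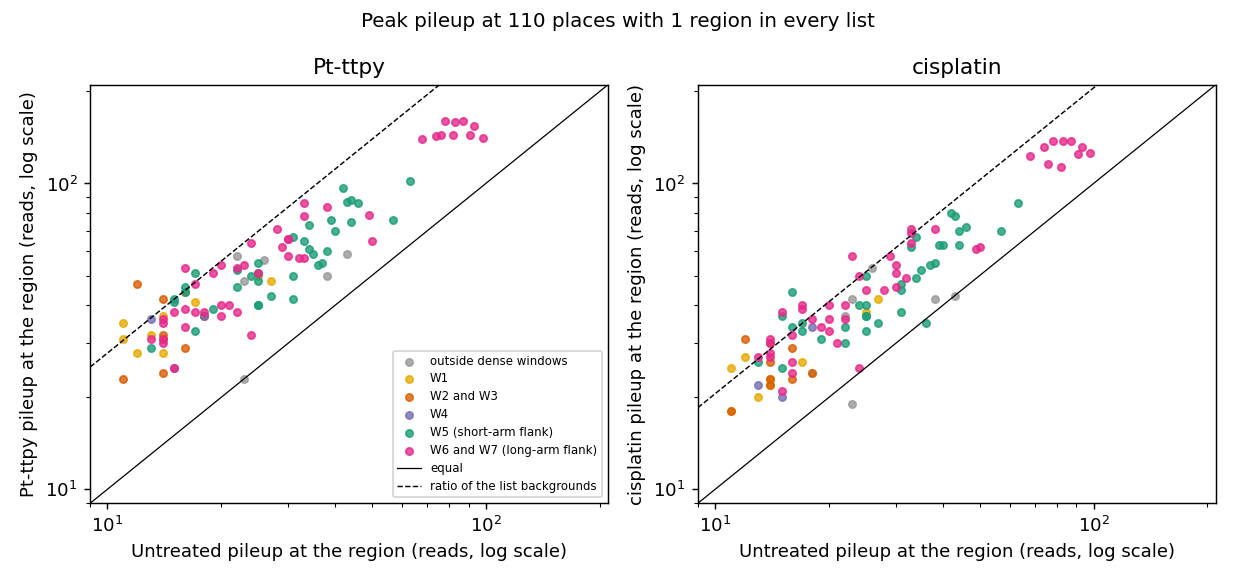
Peak pileup in reads at the 110 places with 1 region in every list, Pt-ttpy (left panel) or cisplatin (right panel) on the vertical axis against untreated on the horizontal axis, both axes logarithmic, coloured by dense window (W1 to W7 as in the plot of regions by dense window). Most points lie above the line of equal reads (solid) and many below the line of the ratio of list backgrounds (dashed, 2.79 for Pt-ttpy and 2.05 for cisplatin). The highest points are in the long-arm flank. An untreated pileup is that of its peak number, whose summit can lie outside the piece at the place.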

How the data were processed

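The deposited files are 3 peak lists, 1 each for Pt-ttpy, cisplatin and untreated cells. Reads were aligned to hg19, and BWA 0.7.5 and MACS2 2.1.0 were used, per the submitters' processing notes. The calling settings, the control and any pooling of the 2 samples of a group: not given in the sources used here. In narrowPeak layout (the files have no header), each deposited region carries a score (the -log10 q times 10, without its decimals), a fold enrichment ratio, a -log10 p-value, a -log10 q-value and a summit offset. Total read depth is not in the lists and is unknown. Regions of chromosomes 1 to 22 and X were used. Members and gene or region lists were chosen with earlier results of these data known. Named regions are the top region by -log10 q in each dense window and list, the widest region, and the 5 strongest treated regions off the untreated list, with the untreated regions on neither treated list. Ties beyond the 5 are named too. The sites outside dense windows, the regions beside the gap, the window at 29.4 Mb and the summit distance were chosen after their values were seen. Pileups were computed as (fold × (background + 1) − 1)/scale, with background and scale from the fold spacing. For Pt-ttpy the scale was 0.798 and the background in this formula was 5.18, which is 6.49 in unscaled reads. For cisplatin and untreated the scale was 1. The largest difference between a Poisson tail from these and its deposited -log10 p-value was 0.000177. The centromere gap was to be the longest region-free stretch, but longer stretches exist elsewhere, so it was entered from general knowledge of hg19; 0 regions lie in it. Missing untreated numbers were placed between their kept neighbours. Intervals are exact (Clopper-Pearson). The overlap, merging and pileup code was tested on simulated data. Tables were handled with pandas 2.3.3 and numpy 2.4.6 in Python 3.11.15. Intervals came from scipy 1.17.1, and plots from matplotlib 3.10.9.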

Additional observations from a re-analysis of the deposited data

How the results depend on the processing

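Of 108 recomputed values, 56 stayed within their counting interval (counts within 1.5 times), 51 moved further and 1 turned its direction. The cause of the changes was not tested. Some of the 56 could not change, because their setting altered the untreated list alone. Joining pieces or counting missing untreated numbers left 283 Pt-ttpy and 335 cisplatin regions and their ratio of 0.845. Leaving out very narrow regions, all of them untreated, did the same. Joining pieces also left the median widths of 197 bp for Pt-ttpy and 177 bp for cisplatin. The 56 is thus no measure of how stable the results are.

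With regions within 1 kb merged, the span held 104 Pt-ttpy, 134 cisplatin and 86 untreated regions, with ratios to untreated of 1.21 for Pt-ttpy and 1.56 for cisplatin. Dense windows then held 68.3%, 56.7% and 74.4% of them, and the median width was 399.5 bp for Pt-ttpy and 199 bp for cisplatin. With equal numbers of top regions, cisplatin had 191 regions, the ratios to untreated were 1.14 for Pt-ttpy and 1.12 for cisplatin, and the Pt-ttpy to cisplatin ratio turned to 1.02. The overlap with untreated was then 71.1% for Pt-ttpy and 69.1% for cisplatin, that of cisplatin with Pt-ttpy 83.8%, and that of untreated with cisplatin 88.8%. With missing untreated numbers counted (270), the ratios were 1.05 for Pt-ttpy and 1.24 for cisplatin.

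With a -log10 q of at least 5, 68.8% of Pt-ttpy, 64.7% of cisplatin and 73.0% of untreated regions lay within 5 Mb of the gap. Median widths were then 218 bp for Pt-ttpy and 200 bp for cisplatin, and 88.4% of cisplatin regions were in dense windows. Pt-ttpy overlapped cisplatin at 88.1% and untreated at 57.9%, and cisplatin overlapped Pt-ttpy at 74.1% and untreated at 49.1%. Windows of 50 kb gave 13 dense windows. With a limit of 20 regions, dense windows held 83.4% of Pt-ttpy and 87.1% of untreated regions.

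With at least 50% of a region covered, Pt-ttpy overlapped cisplatin at 74.9% and untreated at 40.6%, and cisplatin overlapped Pt-ttpy at 60.9% and untreated at 33.7%. With 1 kb allowed between regions these were 95.1%, 73.1%, 84.8% and 64.8%, and untreated regions reached 97.1% with Pt-ttpy and 99.4% with cisplatin. Without the sequence within 5 Mb of the gap the first 4 shares were 74.2%, 36.7%, 58.9% and 29.7%, and untreated overlapped Pt-ttpy at 88.1%.

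A pair of alternatives was chosen after seeing the data: a limit of 7 regions, and the longest empty stretch in place of the gap, around which lay 36.0% of Pt-ttpy, 35.5% of cisplatin and 24.1% of untreated regions. No paired analysis was possible because both samples of a group are tied to 1 list; for the same reason no replicate could be left out. Read depth is unknown, so regions near the lowest called pileup of a list may be missed in another.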
